A study of Rattus norvegicus with 12 samples.

Results

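Cells answer an inflammatory stimulus through NF-kappaB, a pair of DNA-binding subunits that waits in the cytoplasm and enters the nucleus when its inhibitor is destroyed. This set holds 10 genes of that pathway out of 14217 genes named on the array, taken by symbol: the feedback inhibitors Nfkbia and Tnfaip3, the subunits Nfkb1, Nfkb2 and Rela, the adhesion genes Vcam1 and Icam1, the cytokines Il6 and Il1b, and the annexin Anxa1. Each was represented by 1 probe set, so no choice between probe sets arose. The cells were cardiomyocytes taken from the ventricles of Wistar rats at 1 day of age, separated from fibroblasts by how fast they attach, grown as primary cultures and kept in OPTI-MEM for 24 h. They then received ethanol vehicle, cortivazol (CVZ, a synthetic glucocorticoid), corticosterone (COR, the main natural glucocorticoid of the rat) or aldosterone (ALD, the natural mineralocorticoid) for 3 h. Parallel cultures were first given 10 µM RU486 (mifepristone), which blocks the glucocorticoid receptor, and then vehicle or the same ligands. Ligand doses are not given in the sources used here, nor is the number of animals behind a culture.

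Nfkbia encodes IkappaB-alpha, which holds NF-kappaB in the cytoplasm, and Tnfaip3 encodes A20, a ubiquitin-editing enzyme that shuts off signalling upstream of it. Both genes are themselves switched on by NF-kappaB and so close a feedback loop. Vcam1 and Icam1 encode cell surface proteins that leukocytes grip, and with Il6 and Il1b they are textbook NF-kappaB targets. Glucocorticoids bind a nuclear receptor that can raise inhibitors such as IkappaB-alpha and can restrain NF-kappaB targets without a DNA motif of its own at those genes. Annexin A1 is a phospholipid-binding protein long known as a mediator of glucocorticoid action.

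Several of these genes share a sequence motif next to their start. In RefSeq promoter windows of the GRCr8 build, from 250 bases before to 50 bases after the start, all 10 genes had an entry, and 6 held the kappaB consensus on at least 1 strand, against 7.51% of all 33469 windows. Tnfaip3 held 3 matches, of which 2 stand 2 bases apart, and Nfkbia, Nfkb1, Nfkb2, Vcam1 and Il6 held 1 each. The windows of Rela, Icam1, Il1b and Anxa1 held none. The full palindromic glucocorticoid response element was found in 0 of the 10 windows and in 0.0149% of all windows, and TGTTCT, which is part of it, was found on either strand in 0 of the 10 and in 20.7% of all. TATAAA was found on either strand in 5 of the 10 windows, those of Nfkbia, Vcam1, Icam1, Il1b and Anxa1, and in 14.2% of all. The Nfkbia match lay after the start and only on the strand opposite the gene. A match is a run of letters and was not shown to be bound in these cells, and absence of a match says nothing of sites outside the window. Stretches of 4 promoters with a match are printed below, with the kappaB match in capitals and every sequence 5′ to 3′ on the strand of the gene. Nfkbia, Tnfaip3 and Vcam1 were taken because they changed with CVZ, and Nfkb2 as a subunit gene. Motif and CVZ change did not go together throughout. Icam1 also changed with CVZ and held no match. Nfkb1 and Nfkb2 held a match without a called CVZ change, and Il6 held a match and was too dim to be tested. The stretches of Tnfaip3 and Vcam1 lie upstream of the annotated gene. Those of Nfkbia and Nfkb2 lie just before the start used for the window but inside the outermost extent of the gene.
Nfkbia, chr6:78597084-78597113, minus strand: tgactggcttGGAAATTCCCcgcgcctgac
Tnfaip3, chr1:15543994-15544093, minus strand: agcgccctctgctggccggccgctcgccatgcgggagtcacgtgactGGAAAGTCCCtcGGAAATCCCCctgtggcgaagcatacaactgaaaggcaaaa
Vcam1, chr2:206742784-206742883, minus strand: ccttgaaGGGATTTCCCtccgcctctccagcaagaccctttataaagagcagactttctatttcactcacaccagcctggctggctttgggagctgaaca
Nfkb2, chr1:255108344-255108373, plus strand: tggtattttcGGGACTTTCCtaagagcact

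Expression was read on 12 Affymetrix arrays in 8 groups. Vehicle, CVZ, COR and ALD had 2 arrays each, 1 from each of 2 experiments, while each of the 4 RU486 groups had 1 array, from the second experiment only. The labels do not say whether the experiments used separate cell preparations, so p-values speak only for the spread between these arrays. For each gene that spread had 3 residual degrees of freedom, beside 12.2 prior degrees drawn from the other probe sets. The number of arrays limits the precision. Signals are MAS5 values divided by the median of their own array, so that 1 is the middle of each array, and changes are log2 differences ± standard error from a fit that includes the experiment as a term. A gene was called changed at a Benjamini-Hochberg adjusted p below 0.05 over the 18625 probe sets tested. The lone RU486 arrays were assumed to vary like the others. In a reference list of steroid-responsive genes, 7 of 7 measured genes were higher with CVZ, 6 with COR and 4 with ALD, and 7 of 7 were lower when RU486 was added to the ligands. Over all tested probe sets 7.96%, 3.39%, 0.95% and 4.87% were called in these comparisons, in either direction. The list was chosen with earlier results of these data known, so it is no independent check of the treatments. Cardiomyocyte markers had a summed signal of 1998 to 2591, and lymphocyte markers summed to 0.737 to 1.67, with 0 of 5 bright enough to be tested. Of the 10 genes, 8 were bright enough to be tested, and Il6 and Il1b were not.

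**Figure D1:**
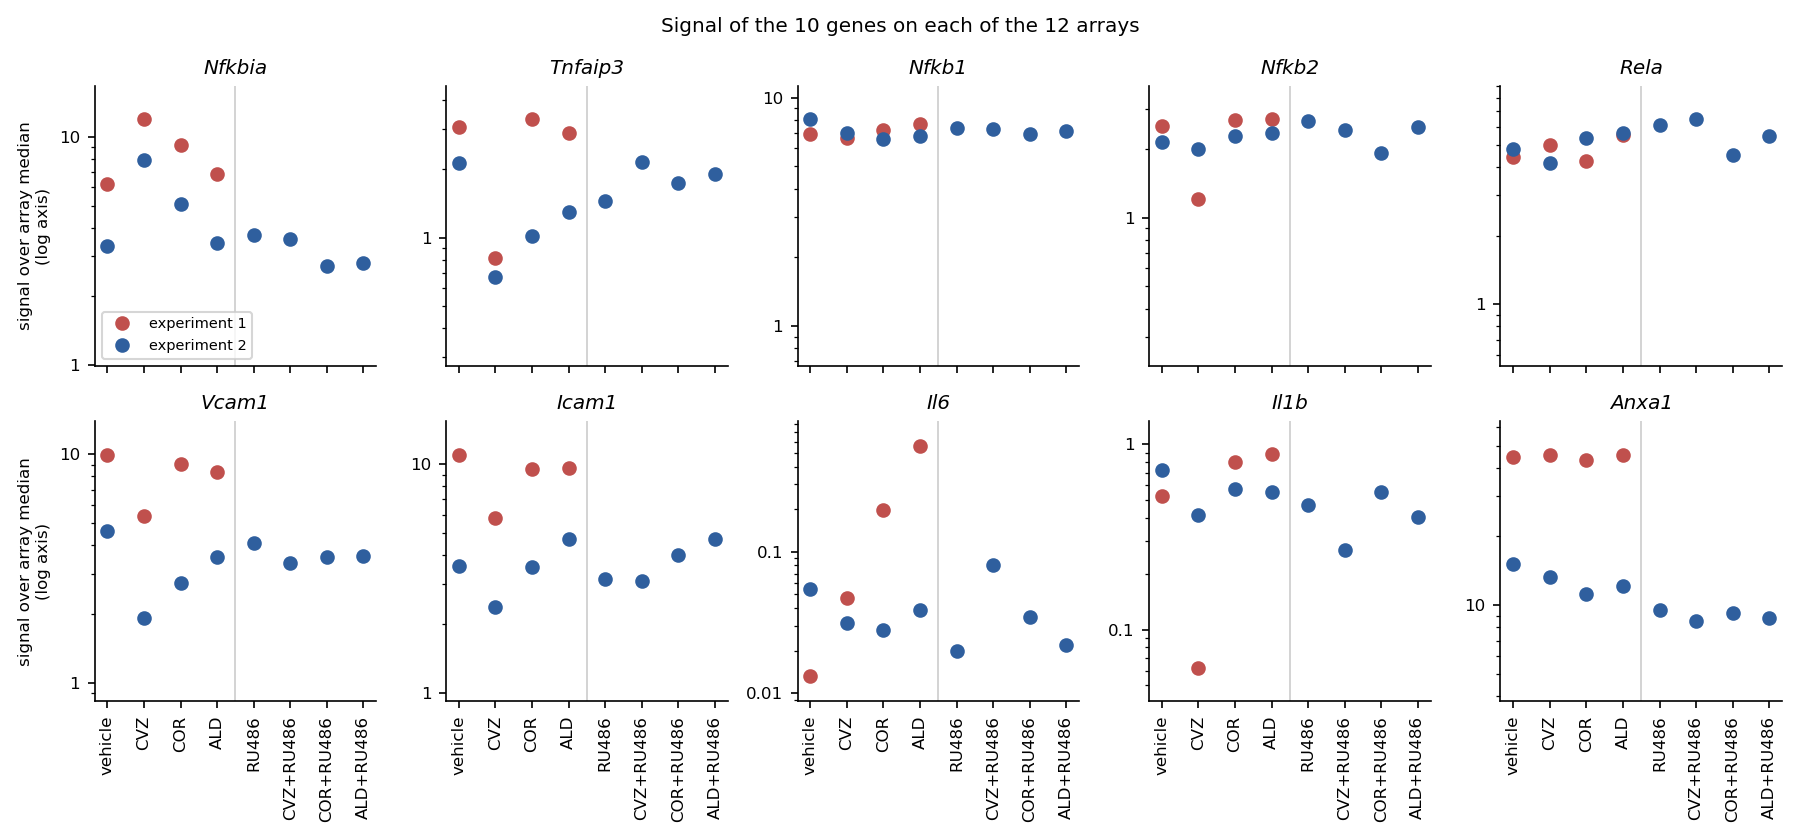
Signal of each of the 10 genes on each of the 12 arrays, as a multiple of the array median on a log axis, with the first experiment in red and the second in blue and the RU486 groups to the right of the line. Nfkbia is highest with CVZ in both experiments, Tnfaip3, Vcam1 and Icam1 are lowest there, and Nfkb1 and Rela stay within a narrow band.

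CVZ raised Nfkbia and lowered Tnfaip3, Vcam1 and Icam1, so that 4 of the 8 tested genes were called, where 7.96% of all tested probe sets were. The median change of the 8 was -0.34 on the log2 scale, beside 0.01 over all tested probe sets. The members were chosen with earlier results of these data known, so these contrasts are no independent evidence on the pathway. The inhibitor gene and the adhesion genes thus moved in opposite directions within the 3 h, and Tnfaip3, a feedback inhibitor like Nfkbia, moved with the adhesion genes. In cultures of mixed cell types, fewer cells of a type and less RNA per cell cannot be told apart.

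Nfkbia signal in the first experiment was 6.19 with vehicle, 11.9 with CVZ, 9.17 with COR and 6.88 with ALD. In the second it was 3.31, 7.89, 5.10 and 3.41 in the same order. The order CVZ, COR, ALD, vehicle was the same in both experiments, although the whole scale was lower in the second. The CVZ rise was 1.09 ± 0.15 on the log2 scale, or 2.12-fold (adjusted p = 0.000139), and the difference was 0.94 within the first experiment and 1.24 within the second. Nfkbia was the only gene of the set called with COR, where 3.39% of all tested probe sets were called, at 0.59 ± 0.15 (1.5-fold, adjusted p = 0.0437) and 0.56 and 0.61 within the experiments. That call was lost without the first or second vehicle array (0.63 and 0.55, adjusted p = 0.143 and 0.213) and without the first or second COR array (0.58 and 0.59, adjusted p = 0.298 and 0.254). It was also lost under quantile normalization (0.57) and trimmed mean scaling (0.55). With ALD the difference was 0.10 ± 0.15 (95% interval -0.22 to 0.42, adjusted p = 0.917), so that ALD, the neighbour of vehicle in the order, was not separated from it.

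Tnfaip3 signal in the first experiment was 3.04 with vehicle, 0.815 with CVZ, 3.29 with COR and 2.88 with ALD. In the second it was 2.11, 0.670, 1.02 and 1.30. Both CVZ arrays lay below every other array of the 12, while COR and ALD lay beside vehicle in the first experiment and below it in the second. CVZ lowered Tnfaip3 by a log2 change of -1.69 ± 0.30, 3.22-fold (adjusted p = 0.00137), with -1.81 and -1.56 within the experiments. The COR difference was -0.45 ± 0.30 (adjusted p = 0.613) and came from 0.11 in the first experiment and -1.0 in the second. For ALD it was -0.37 ± 0.30 (adjusted p = 0.794).

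Vcam1, which holds leukocytes through the integrin VLA-4, had signals of 9.96 with vehicle, 5.34 with CVZ, 9.09 with COR and 8.32 with ALD in the first experiment. In the second they were 4.63, 1.91, 2.72 and 3.55. The CVZ array was the lowest of its experiment each time. The CVZ fall was -1.07 ± 0.17 on the log2 scale, 2.10-fold (adjusted p = 0.000519), with -0.89 and -1.25 within the experiments. COR gave -0.44 ± 0.17 (adjusted p = 0.242) and ALD -0.32 ± 0.17 (adjusted p = 0.635), both below vehicle in each experiment but short of the threshold.

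Icam1, which holds leukocytes through beta-2 integrins, had signals of 11 with vehicle, 5.81 with CVZ, 9.52 with COR and 9.58 with ALD in the first experiment. In the second they were 3.58, 2.37, 3.54 and 4.68. Again the CVZ array was the lowest of its experiment, and the ALD array stood above vehicle in the second. CVZ lowered Icam1 by a log2 change of -0.75 ± 0.16, 1.68-fold (adjusted p = 0.00719), with -0.91 and -0.58 within the experiments. The call was lost without the first vehicle array (-0.56, adjusted p = 0.148) and without the first CVZ array (-0.71, adjusted p = 0.0736). For COR the difference was -0.11 ± 0.16 (adjusted p = 0.863) and for ALD 0.09 ± 0.16 (adjusted p = 0.925).

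The subunit genes ranged less widely over the 12 arrays, Nfkb1 least of all. Nfkb1, which encodes the p105 precursor of p50, ranged from 6.58 to 8.03 over the 12 arrays, and Rela, which encodes the main transactivating subunit p65, from 4.15 to 6.45. Their CVZ differences were -0.12 ± 0.14 for Nfkb1 (95% interval -0.41 to 0.17) and -0.01 ± 0.16 for Rela (-0.35 to 0.32), with adjusted p of 0.733 and 0.980. In the second experiment Rela read 4.15 with CVZ and 6.45 with CVZ and RU486. The fitted difference by limma was 0.47 ± 0.20 (unadjusted p = 0.0343, adjusted p = 0.273), so it was not called. Nfkb2, which encodes the p100 precursor of p52, ranged from 1.21 to 2.69. Its lowest array was CVZ of the first experiment at 1.21, against 2.52 with vehicle, while in the second the signals were 2.00 and 2.13. The fitted difference of Nfkb2 was -0.55 ± 0.24 (adjusted p = 0.232), and without the second CVZ array it was -1.01 (adjusted p = 0.0295).

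The cytokine genes were near or below the level at which a probe set was tested, a geometric mean of 0.630. Il6 signal ranged from 0.0132 to 0.557 with a median of 0.0369, and Il1b signal from 0.0616 to 0.889 with a median of 0.542. The highest Il6 value was the ALD array of the first experiment, whose counterpart in the second read 0.0386. The lowest Il1b value was the CVZ array of the first experiment, against 0.529 with vehicle there, and in the second experiment the values were 0.415 and 0.727. Tested without the filter, the CVZ difference of Il1b was -1.45 ± 0.65 (adjusted p = 0.346) and that of Il6 0.10 ± 0.73 (adjusted p = 0.979).

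Anxa1 did not pass the test with any ligand. In the first experiment its signals were 44.6 with vehicle, 45.6 with CVZ, 43.4 with COR and 45.2 with ALD, and in the second they were 15.1, 13.3, 11.2 and 12.1. The ligands lay together within each experiment, and the experiments did not overlap. The fitted differences were -0.07 ± 0.11 for CVZ (95% interval -0.31 to 0.16), -0.23 ± 0.11 for COR (-0.47 to 0.00) and -0.15 ± 0.11 for ALD (-0.38 to 0.09), with adjusted p from 0.395 to 0.809.

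**Figure D2:**
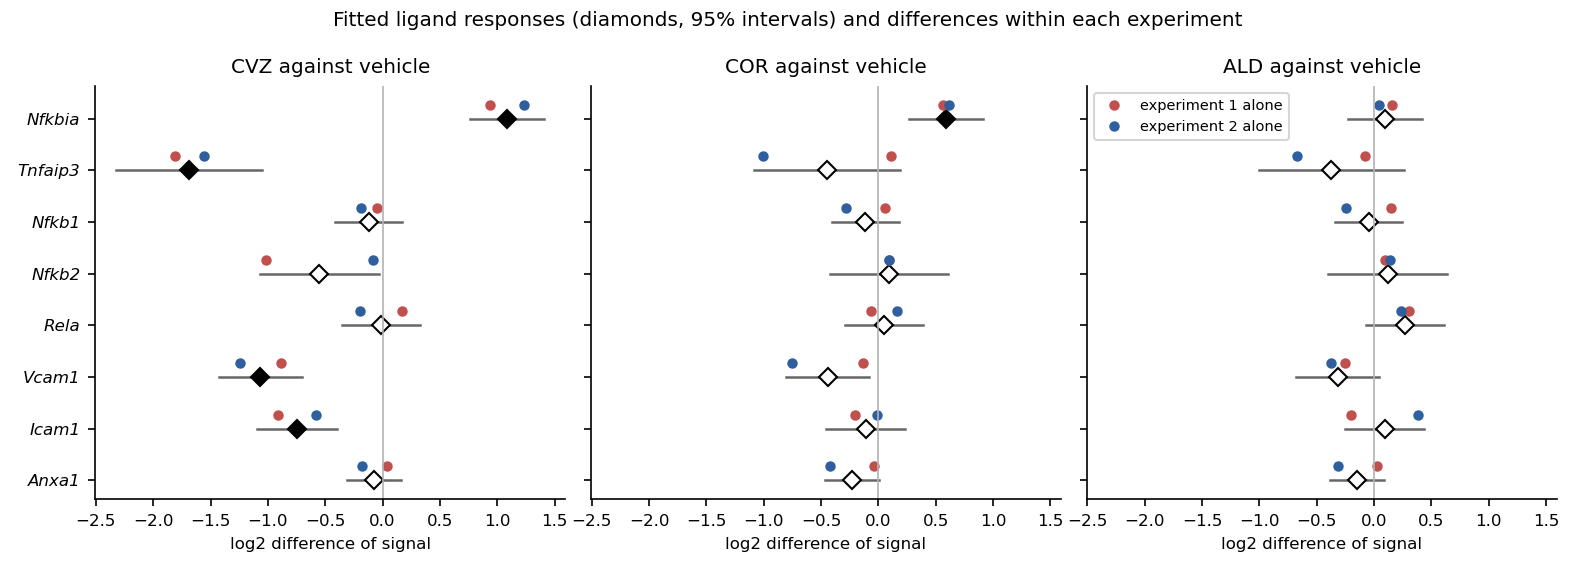
Fitted log2 difference from vehicle of the 8 tested genes with CVZ, COR and ALD (diamonds with 95% intervals, filled where called) and the difference within each experiment (dots). CVZ gives 4 filled diamonds, COR gives 1, Nfkbia at 0.59, and ALD gives none.

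With ALD 0 of the 8 genes were called by limma, where 0.95% of all tested probe sets were called, and 0 of the 8 reached an unadjusted p below 0.05. Among markers of other cells, 0 of 9 fibroblast markers were called with CVZ, COR or ALD (1 of 9 each at an unadjusted p below 0.05). Of 5 endothelial markers 1 was called higher with each ligand, the VEGF receptor gene Kdr (1.83 ± 0.19 with CVZ). With CVZ, Pecam1 (1.08 ± 0.34) and Emcn (0.60 ± 0.26) also had an unadjusted limma p below 0.05, and Tek (0.07 ± 0.18) and Tie1 (0.25 ± 0.31) did not. With COR, Pecam1 (0.90 ± 0.34) did. Of all tested probe sets, 7.96% were called with CVZ and 3.39% with COR. Of 7 tested macrophage markers 1 was called higher with CVZ, the mannose receptor gene Mrc1 (0.92 ± 0.23). Cd14 (-0.45 ± 0.21) was lower at an unadjusted limma p below 0.05. Csf1r (-0.98 ± 0.48), Aif1 (-0.30 ± 0.52), Ptprc (-0.04 ± 0.45), Cd68 (-0.004 ± 0.19) and C1qa (0.38 ± 0.47) did not reach that level. The part of these cells in the changes of the set was not tested. Without the experiment as a block, 0 of the 8 genes were called with any ligand or with RU486. Without the mean-variance trend, which shares the variance of probe sets of like signal, the CVZ calls of Nfkbia (adjusted p = 0.0238) and Vcam1 (0.0464) held. Those of Tnfaip3 (adjusted p = 0.0695) and Icam1 (0.0962) and the COR call of Nfkbia were lost.

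The ligands were then set against each other, which uses the same CVZ arrays as above. ALD differed from CVZ in 4 of the 8 genes, where 4.25% of all tested probe sets were called. Nfkbia was lower with ALD than with CVZ by a log2 difference of -0.99 ± 0.15 (adjusted p = 0.000776), and Icam1 (0.84 ± 0.16, adjusted p = 0.00515), Vcam1 (0.75 ± 0.17, adjusted p = 0.0169) and Tnfaip3 (1.31 ± 0.30, adjusted p = 0.0173) were higher. The Nfkbia call held with each array of the replicated groups left out in turn, but all 4 calls were lost without the mean-variance trend in the variance model (adjusted p = 0.0696 for Nfkbia, 0.128 for Icam1, 0.185 for Vcam1 and 0.206 for Tnfaip3). The Icam1 call was lost without the first CVZ array (0.80, adjusted p = 0.0607) or the second ALD array (0.64, adjusted p = 0.119). That of Tnfaip3 was lost without the first CVZ array (0.90) or the first ALD array (1.16), and also with no filter. That of Vcam1 was lost without the first or second CVZ array (0.81 and 0.70, adjusted p = 0.0731 and 0.135) or the first or second ALD array (0.86 and 0.65, adjusted p = 0.0545 and 0.162). Nfkb2 was called without the second CVZ array, at 1.13 (adjusted p = 0.0254), and not otherwise.

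COR did not differ from CVZ in any of the 8 genes by limma at the adjusted threshold, where 0.966% of all tested probe sets were called, but 5 of the 8 had an unadjusted p below 0.05. The differences of COR minus CVZ were -0.50 ± 0.15 for Nfkbia (95% interval -0.82 to -0.18, adjusted p = 0.192), 0.63 ± 0.17 for Vcam1 (0.26 to 0.99, adjusted p = 0.122) and 0.64 ± 0.16 for Icam1 (0.29 to 0.98, adjusted p = 0.0932). For Tnfaip3 the difference was 1.24 ± 0.30 (0.60 to 1.88, adjusted p = 0.0688), and it was called without the second CVZ array (1.65, adjusted p = 0.0405) or the second ALD array (1.24, adjusted p = 0.0485). ALD did not differ from COR in any of the 8 at that threshold, where 0.295% of probe sets were called and 1 of the 8, Nfkbia at -0.49 ± 0.15 (adjusted p = 0.375), had an unadjusted p below 0.05. Neither CVZ and COR nor COR and ALD, neighbours in the order of Nfkbia levels, were separated at this threshold, which does not show that they act alike.

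With RU486 added to CVZ, Nfkbia was lower and Tnfaip3 higher than with CVZ alone. In the second experiment Nfkbia read 7.89 with CVZ and 3.57 with CVZ and RU486, 5.10 with COR and 2.71 with COR and RU486, 3.41 with ALD and 2.80 with ALD and RU486, and 3.31 with vehicle and 3.73 with RU486 alone. Nfkbia was lower on each ligand array with RU486 than on its partner without, and RU486 alone lay above vehicle. The fitted difference of CVZ with RU486 from CVZ was -1.01 ± 0.19 (adjusted p = 0.00442), that of COR -0.90 ± 0.19 (adjusted p = 0.0379) and that of ALD -0.36 ± 0.19 (adjusted p = 0.999). Of the set, 3 of 8 genes were called for CVZ, where 4.68% of probe sets were called, 1 for COR, where 0.854% were, and 0 for ALD, where 0.0215% were and 1 gene, Anxa1, had an unadjusted p below 0.05 by limma. Without the second CVZ array the CVZ value of Nfkbia was -0.81 (adjusted p = 0.122), and without the first or second COR array the COR value was -0.89 or -0.91 (adjusted p = 0.140 and 0.260). The COR call was also lost without the first or second CVZ array (-0.86 each, adjusted p = 0.0566 and 0.0525).

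Tnfaip3 went the other way, from 0.670 with CVZ to 2.14 with CVZ and RU486, from 1.02 to 1.73 with COR and from 1.30 to 1.90 with ALD. Vehicle read 2.11 without RU486 and 1.45 with it. Tnfaip3 was higher with RU486 on all 3 ligands and lower on vehicle. The fitted CVZ difference was 1.89 ± 0.38 on the log2 scale (adjusted p = 0.00678), while that of COR was 0.35 ± 0.38 (adjusted p = 0.906) and that of ALD 0.41 ± 0.38 (adjusted p = 0.999). Fitted differences with RU486, for this and the other genes, also use the ligand arrays of the first experiment. They can therefore depart from the step between the readings of the second. Over the 3 ligands Tnfaip3 was higher with RU486 by 0.88 ± 0.24 (adjusted p = 0.0419). That call was lost without the second COR array (0.59) or the second ALD array (0.79), and also with no filter. Among cell type markers, the addition of RU486 to CVZ lowered Kdr (-1.42 ± 0.24), Mrc1 (-1.27 ± 0.29), Tagln (-0.84 ± 0.15) and 4 of 10 cardiomyocyte markers. Kdr was the only endothelial marker called, Mrc1 the only macrophage marker and Tagln the only smooth muscle marker. The other tested macrophage markers had differences of both signs. Of the fibroblast markers 0 of 9 were called, where 4.68% of all tested probe sets were called. The part of these cells in the Nfkbia and Tnfaip3 differences was not tested.

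Over the 3 ligands together, 3 of the 8 genes differed with RU486, where 4.87% of probe sets did. Without the mean-variance trend every call with RU486 was lost, over the 3 ligands with adjusted p of 0.0766 for Nfkbia, 0.170 for Anxa1 and 0.268 for Tnfaip3, and for CVZ with 0.106, 0.254 and 0.163. Beside Tnfaip3 these were Nfkbia (-0.76 ± 0.12, adjusted p = 0.00103) and Anxa1 (-0.50 ± 0.09, adjusted p = 0.00249). Vcam1 read 1.91 with CVZ and 3.34 with CVZ and RU486, 2.72 and 3.55 for COR, and 3.55 and 3.58 for ALD. It read 4.63 with vehicle and 4.09 with RU486 alone. Vcam1 with CVZ and RU486 thus lay between the CVZ and the vehicle array, with a fitted CVZ difference of 0.74 ± 0.22 (adjusted p = 0.0690) that was called without the second vehicle array (0.79, adjusted p = 0.0436). For Icam1 the readings were 2.37 and 3.08 with CVZ, 3.54 and 3.99 with COR, and 4.68 and 4.70 with ALD, and the CVZ difference was 0.40 ± 0.21 (adjusted p = 0.409). Icam1 read 3.58 with vehicle and 3.14 with RU486 alone.

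**Figure D3:**
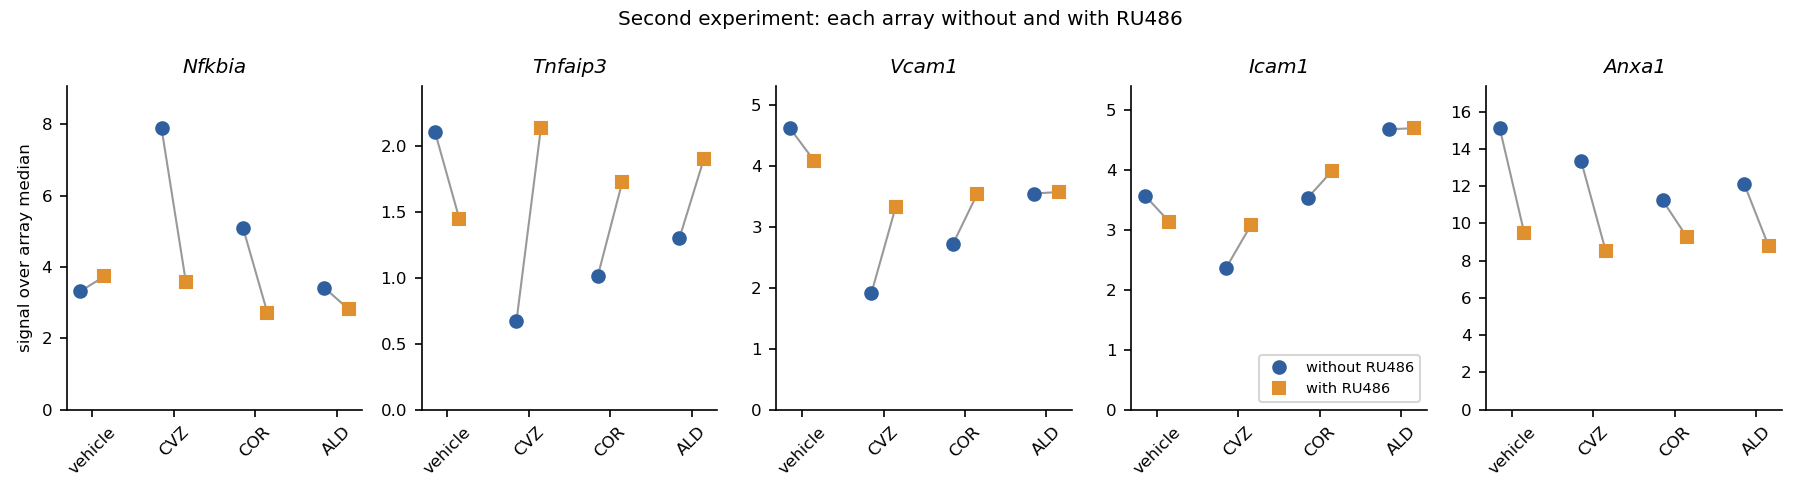
Signal of 5 genes in the second experiment as a multiple of the array median, each condition without RU486 (circles) joined to the same condition with RU486 (squares), 1 array each. Nfkbia with CVZ drops from 7.89 to 3.57, Tnfaip3 with CVZ climbs from 0.670 to 2.14, and the 4 Anxa1 squares lie below the 4 circles.

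Anxa1 was lower on every array with RU486, that without a ligand included. Its signal was 9.51 with RU486 alone, 8.54 with CVZ, 9.25 with COR and 8.79 with ALD added, against 11.2 to 15.1 on the 4 arrays of that experiment without RU486. All 4 RU486 arrays lay below the other 4, as they did for 3.60% of all tested probe sets, and Anxa1 was the only one of the 8 genes for which they did. For RU486 alone against vehicle the difference of Anxa1 was -0.55 ± 0.14 (adjusted p = 0.251), and it was the 1 gene of 8 with an unadjusted p below 0.05 where 0 of 8 were called and 0.129% of probe sets were. The interaction of Anxa1 was 0.05 ± 0.16 (adjusted p = 0.992). The plain difference of CVZ with RU486 from CVZ alone was -0.63 ± 0.14 for Anxa1 (adjusted p = 0.0149). Without the second CVZ array that difference was -0.61, and the call was lost. The RU486 arrays also had high medians before division, from 35.4 to 37.7, against 22.4 to 33.7 on the other arrays of the second experiment. In the same comparison over the 3 ligands 6 of 10 cardiomyocyte markers, 1 of 5 smooth muscle markers (Tagln, -0.57 ± 0.09), 1 of 5 endothelial markers (Kdr, -1.08 ± 0.15), 0 of 7 macrophage markers and 0 of 9 fibroblast markers were lower, where 4.87% of all tested probe sets were called in either direction. The part of these shifts in the Anxa1 difference was not tested.

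Whether the ligand response itself differed with RU486 was tested as an interaction. By limma 0 of the 8 genes were called, where 1.09% of probe sets were, and 3 of 8 had an unadjusted p below 0.05. The lowest p was that of Nfkbia, at -0.90 ± 0.21 (adjusted p = 0.0618), which was called without the second ALD array. Tnfaip3 had 1.22 ± 0.42 (adjusted p = 0.324) and Icam1 0.55 ± 0.23 (adjusted p = 0.518). Ligands with RU486 against RU486 alone gave 0 calls by limma, 0% of all tested probe sets, with 0 of the 8 genes and 462 of all probe sets at an unadjusted p below 0.05. In that comparison Nfkbia stood at -0.31 ± 0.17 (95% interval -0.68 to 0.06) and Vcam1 at -0.23 ± 0.20 (-0.64 to 0.19).

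More probe sets differed between the experiments than between any ligand and vehicle. Of the 8 genes 5 were lower in the second experiment, where 38.9% of all tested probe sets differed, 28.2% lower and 10.7% higher. The median of all tested probe sets was itself -0.10, and it became 0.03 under quantile normalization and 0.10 under trimmed mean scaling, which turned the split of lower to higher calls from 5250 and 1995 to 3236 and 3558 and to 3026 and 4421. The 5 genes stayed called and lower under each of those scalings. Anxa1 differed by -1.79 ± 0.08 (adjusted p = 8.31e-10), Vcam1 by -1.37 ± 0.12 (adjusted p = 4.53e-07), Icam1 by -1.33 ± 0.11 (adjusted p = 3.78e-07), Tnfaip3 by -0.88 ± 0.21 (adjusted p = 0.00384) and Nfkbia by -0.83 ± 0.11 (adjusted p = 2.06e-05). Without RU486, the arrays of Anxa1, Vcam1 and Icam1 in the second experiment all lay below those of the first, as they did for 24.2% of all tested probe sets. The subunit genes gave -0.01 ± 0.10 for Nfkb1, 0.01 ± 0.17 for Nfkb2 and 0.05 ± 0.11 for Rela, which became 0.19, 0.10 and 0.21 under quantile normalization.

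**Figure D4:**
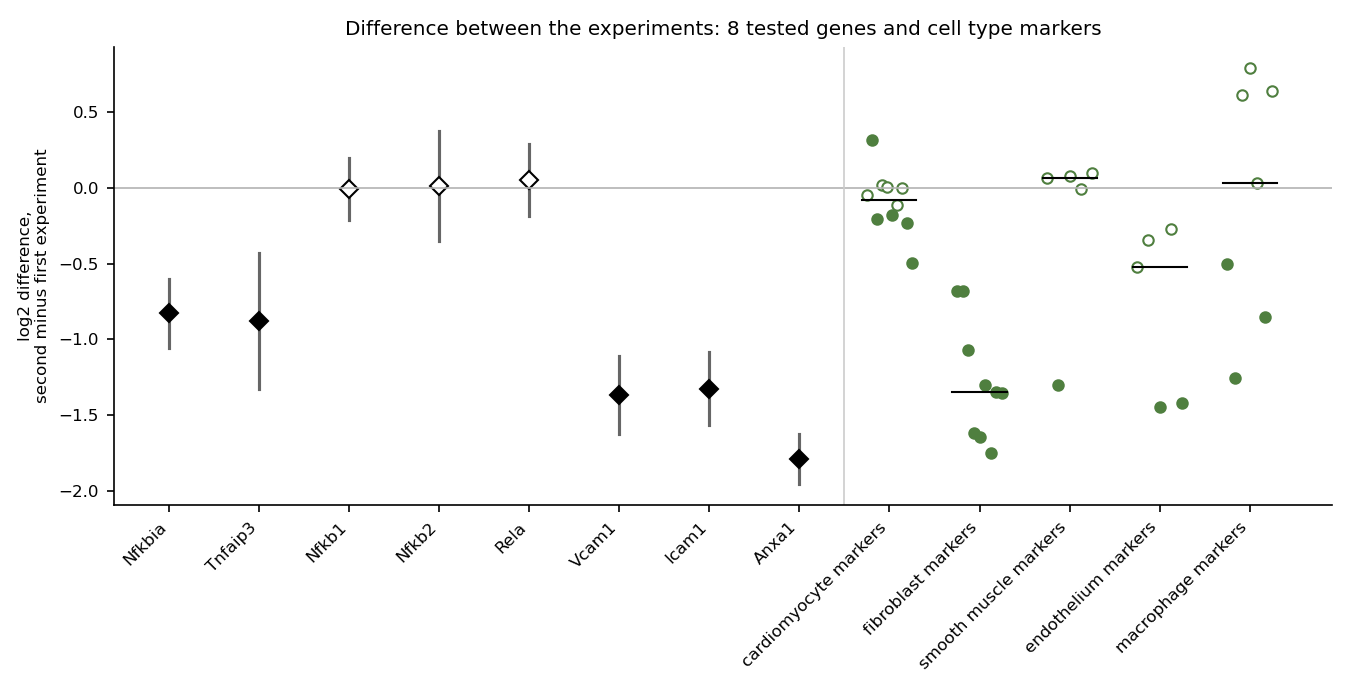
Log2 difference of the second from the first experiment for the 8 tested genes (diamonds with 95% intervals, filled where called) and for the tested markers of 5 cell types (circles, filled where called, with the median as a line). Vcam1 at -1.37 and Icam1 at -1.33 lie within the range of the fibroblast markers, whose median is -1.35, and Anxa1 at -1.79 lies just below it, while Nfkb1, Nfkb2 and Rela lie near 0.

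Fibroblast markers moved with these genes between the experiments. All 9 were lower in the second, with a median of -1.35, and their summed signal was 366 to 449 in the first experiment, 195 to 203 on the arrays of the second without RU486 and 177 to 191 on those with it. Endothelial markers summed to 15.5 to 30.3, 8.08 to 20.5 and 8.01 to 10.9 in the same order, with 2 of 5 lower, and macrophage markers to 13.2 to 14.0, 9.08 to 9.92 and 8.04 to 9.91, with 3 of 7 lower. Of 10 cardiomyocyte markers 4 were lower and 1 higher. Over all tested probe sets 28.2% were lower and 10.7% higher. The part of the cell types in the levels of Anxa1, Vcam1 and Icam1 was not tested.

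Further genes of the pathway were read from lists of 92 genes, of which 80 had a probe set and 60 were tested. These lists, too, were chosen with earlier results of these data known. The median CVZ change by list lay between -0.11 (subunits and IkappaB genes) and 0.21 (adhesion genes), beside 0.01 over all tested probe sets. With CVZ 5 of the 60 were higher and 2 lower, 11.7% of them beside the 7.96% of all probe sets, and with COR and ALD 1 each was higher. Among 10 tested feedback inhibitors 2 were higher with CVZ. Zfp36, which encodes the mRNA-destabilizing protein tristetraprolin, read 5.19 with vehicle, 26.5 with CVZ, 14.4 with COR and 8.28 with ALD in the first experiment and 4.39, 16.8, 10.3 and 7.03 in the second. Its order of levels was that of Nfkbia, and its changes were 2.13 ± 0.14 with CVZ (adjusted p = 3.01e-08), 1.34 ± 0.14 with COR (adjusted p = 1.17e-05) and 0.67 ± 0.14 with ALD (adjusted p = 0.0226). Zfp36 was lower with RU486 on the ligands (-0.87 ± 0.11, adjusted p = 0.000113), and its interaction was called (-1.22 ± 0.19, adjusted p = 0.00331). Birc2, which encodes the ubiquitin ligase cIAP1, was higher with CVZ (0.73 ± 0.12, adjusted p = 0.000845), and Tax1bp1, which encodes an A20 partner, was not called with a ligand.

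Among the cytokine genes 3 of 6 tested were called with CVZ, 2 of them lower, where 7.96% of all tested probe sets were called. Ccl2, the monocyte attractant, read 45.2 with vehicle and 6.64 with CVZ in the first experiment and 16.3 and 2.36 in the second. Its CVZ change was -2.75 ± 0.19 (adjusted p = 8.13e-08), and RU486 on the ligands raised it by 0.82 ± 0.15 (adjusted p = 0.00351). Cxcl1, the neutrophil attractant, fell with CVZ by 1.92 on the log2 scale (SE 0.31, adjusted p = 0.000570) and was 0.94 ± 0.24 higher with RU486 on the ligands (adjusted p = 0.0358). Ccl2 and Cxcl1 therefore went in the direction of Vcam1, Icam1 and Tnfaip3. Il15, a lymphocyte growth factor, was called higher with CVZ (adjusted p = 0.0404), with signals of 1.14 with vehicle and 3.08 with CVZ in the first experiment and 0.0672 and 1.03 in the second. The second vehicle value lies below the pseudocount of 0.0696, so the size of the fitted Il15 change rests on that floor and is not given.

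Of 11 other adhesion genes tested by limma, 2 were called higher with CVZ and 0 lower, where 7.96% of all tested probe sets were called. At an unadjusted p below 0.05 there were 6, of which 5 had a positive and 1 a negative difference. That 1 was Itgb2, the beta-2 integrin gene, named after its values were seen, at -0.85 ± 0.31 (adjusted p = 0.123). Its signal was 2.52 with vehicle and 0.777 with CVZ in the first experiment and 1.53 and 1.45 in the second. The genes called higher were the integrin gene Itgb1 (0.59 ± 0.08, adjusted p = 0.000151) and the junction gene Jam3 (0.41 ± 0.11, adjusted p = 0.0372). Alcam, which encodes an adhesion molecule of the immunoglobulin family, was not called with a ligand. Of 20 tested genes of upstream signalling, among them Il6st, Map3k7 and Chuk, 0 were called with CVZ, COR or ALD by limma, with 2, 1 and 0 at an unadjusted p below 0.05. Of 4 other subunit and IkappaB genes, namely Nfkbib, Nfkbiz, Relb and Bcl3, 0 were called with these ligands, with 0, 1 and 1 at that level. Of 9 other annexins and S100 partners, among them Anxa2, S100a11 and Anxa5, 0 were called with these ligands, with 1, 0 and 1 at that level. S100a11 was lower with RU486 on the ligands (-0.37 ± 0.08, adjusted p = 0.0111). Between experiments 6 of those 9 were lower and 1 higher, among them Anxa2 (-1.34 ± 0.05) and S100a10 (-1.98 ± 0.10), and 7 of the 11 adhesion genes were lower and 1 higher, among them Alcam (-1.02 ± 0.07). Of all tested probe sets 28.2% were lower and 10.7% higher between experiments.

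The genes most like the called members over the 12 arrays, by Pearson correlation of log2 signal, were Ccn3 (0.977), Sgk1 (0.973) and Calm2 (0.972) for Nfkbia, and Gypc (0.920), Magi3 (0.912) and Ccl2 (0.910) for Tnfaip3. For Vcam1 they were Tmem43 (0.990), Map4k4 (0.976) and Marcks (0.973), and for Icam1 Prkaa2 (0.975), Reep3 (0.958) and mrpl9 (0.954). These are descriptions, since all genes share the same arrays and the step between the experiments. Sgk1, a kinase gene known to respond to corticosteroids, was higher with CVZ by 2.16 on the log2 scale.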

How the data were processed

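RNA of 12 cultures was hybridised to Affymetrix arrays. The authors deposited linear intensity values, MAS5 signals per the submitters' processing notes, and tests on the values show that the authors divided each array by its own median. Depth does not exist for arrays. From these values the log2 of signal plus a pseudocount of 0.0696, the 10th percentile, was taken. After 57 control probe sets were left out, 31042 remained, and those with a mean above the 40th percentile were tested (18625). Of the 31042, 20826 had 1 symbol, 436 several and 9780 none. Symbols came from the platform annotation, updated to RefSeq GRCr8.

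Linear models were fitted in limma (version 3.58.1, R version 4.3.3; lmFit, then eBayes, trend included) to the 8 groups plus the experiment block. Residual degrees of freedom were 3, prior degrees 12.2 and total degrees 15.2. It was tested on simulated data. The labels give the experiment of each array, and after group means were removed arrays of an experiment deviated together between groups (r 0.512 to 0.567). Replicates correlated at 0.946 to 0.950.

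The members and lists were chosen with earlier results of these data known. Named were all 10 members, list genes called with a ligand or with RU486 on the ligands, the brightest up to 3 per list, and the 3 genes most like each called member. Some further genes (Kdr, Pecam1, Emcn, Tek, Tie1, Mrc1, Cd14, Csf1r, Aif1, Ptprc, Cd68, C1qa, Tagln, S100a10, Itgb2) were named after their values were seen. Alternatives were the pseudocount, filter, normalization, variance trend, block, the RU486 arrays left out, and each array of the replicated groups left out.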

Additional observations from a re-analysis of the deposited data

How the results depend on the processing

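The experiment block decided the calls: without replicate block 0 of the 8 tested genes were called for CVZ, COR, ALD against CVZ, CVZ with RU486, COR with RU486 or the ligands with RU486, in place of 4, 1, 4, 3, 1 and 3. The step between experiments then enters the error. For the comparisons with RU486, whose arrays are all of the second experiment, it also enters the fitted difference. Without the mean-variance trend the counts were 2, 0, 0, 0, 0 and 0. The COR count fell from 1 to 0 with no filter, quantile normalization or trimmed mean scaling, and COR with RU486 from 1 to 0 with no filter. The Tnfaip3 calls of ALD against CVZ and of the ligands with RU486 were also lost with no filter. With the filter at the 60th percentile COR against CVZ and the interaction each rose from 0 to 1 (Tnfaip3 and Nfkbia). Leaving out an array at a time gave 0 to 1 calls for COR, COR against CVZ, COR with RU486 and the interaction, and 1 to 4 for ALD against CVZ and CVZ with RU486. The CVZ call of Nfkbia held under 16 of 17 alternatives (0.93 to 1.25), that of Vcam1 under 16 (-0.89 to -1.25) and that of Tnfaip3 under 15 (-1.27 to -2.10). All 5 differences between the experiments held under the 16 alternatives that could be run. The causes of the other losses were not tested. Of 112 member values 86 were called nowhere, and 47 of these changed sign in at least 1 alternative. The planned mean over probe sets gave no value because each gene had 1. Signals of Il6 and Il1b were too low for the filter. Another scaling moved the split of higher to lower calls over all probe sets from 889 and 594 to 782 and 807 for CVZ and from 454 and 178 to 432 and 271 for COR (trimmed mean), and from 162 and 15 to 150 and 37 for ALD and from 350 and 557 to 483 and 475 for RU486 on the ligands (quantile).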
